A study of Mus musculus with 4 samples.

Results

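Metabotropic glutamate receptors are G protein-coupled receptors that turn glutamate release into slow changes of second messengers and transmitter release. Group I receptors act through Gq on phospholipase C and on calcium stores, while group II and group III receptors act through Gi/o and lower cyclic AMP. In the cerebellum, group III receptors sit on parallel fibre terminals of granule cells, and group II receptors are known in Golgi cells and glia. The genes described here are 6 members of this family, chosen by their symbols among the 24015 genes of the deposited count table: Grm5 of group I, Grm2 and Grm3 of group II, and Grm4, Grm7 and Grm8 of group III. All 6 were in the table and all 6 passed the filter on low counts, which left 15117 genes for testing.

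The libraries came from cerebella micro-dissected at 140 to 150 days of age from C57BL/6N mice: 2 libraries of animals heterozygous for an Arid1b knockout (HT) and 2 of wild type (WT) littermates, with 1 male and 1 female library per genotype. Arid1b encodes a subunit of the BAF nucleosome-remodelling complex, and the study asked how the heterozygous knockout changed gene expression. Poly(A) RNA of the whole dissected piece was sequenced with a strand-specific kit. In such bulk samples, fewer cells of a type and less RNA per cell cannot be told apart in any value below. No libraries share both sex and genotype, so each stands for different mice, and the labels do not say whether any was pooled from several.

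Library totals lay between 15950899 and 20616219 counts. Arid1b is given as counts scaled to the library total (CPM). It stood at 52.9 in the HT male and 55.8 in the HT female. The WT male had 69.9 and the WT female 71.0. The log2 fold change of Arid1b was -0.37 ± 0.11 (SE), with an adjusted p, over all tested genes, of 0.243 (edgeR quasi-likelihood test). All 10 granule cell and all 10 Purkinje cell markers listed for this work were detected in every library. The female WT library stood apart from the other 3 in genes of brainstem and midbrain neurons. The summed level of 12 such markers was 422 and 398 CPM in the HT male and female, against 345 CPM in the WT male and 142 CPM in the WT female. In that last library Slc6a3, the dopamine transporter, had no count, and Tph2, the serotonin synthesis enzyme, was at 5.63 CPM, against 49.5 to 52.2 CPM in the other libraries. The summed level of 4 pituitary markers was 29.8 CPM in the HT female and at most 4.41 CPM elsewhere. Prl, at 19.4 CPM, and Gh, at 8.02 CPM, made up most of that HT female sum, while Pomc ran from 1.88 to 2.72 CPM over the libraries. The summed level of 6 choroid plexus markers was 1935 CPM in the HT male and at most 1032 CPM elsewhere. Each member is therefore also given without the female WT library.

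Per length, Grm4 was the most abundant member and Grm8 the least. Over the union of annotated exons, Grm4 reached 62.4 ± 8.48 RPKM (CPM per kilobase; mean ± SD, n = 2) in HT and 71.8 ± 9.69 RPKM (n = 2) in WT. Grm3 followed at 8.96 ± 1.25 RPKM in HT and 8.68 ± 1.54 RPKM in WT, and its 4 values did not overlap those of Grm4. Grm7, with 3.96 to 5.95 RPKM over the 4 libraries, and Grm2, with 4.20 to 5.33 RPKM, overlapped and could not be ordered. Grm5, with 1.24 to 3.87 RPKM, and Grm8, with 1.05 to 1.92 RPKM, overlapped through the female WT value of Grm5. The places below Grm4 depended on the length used. Over the longest coding length Grm7 averaged 11.0 RPKM over all libraries, Grm3 10.2, Grm2 8.80 and Grm5 8.56, and Grm8 was still the lowest at 5.51. Grm6, the family's receptor of retinal bipolar cells, had 1 count in all 4 libraries together. Below, levels are in CPM and are compared only within a gene.

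**Figure D1:**
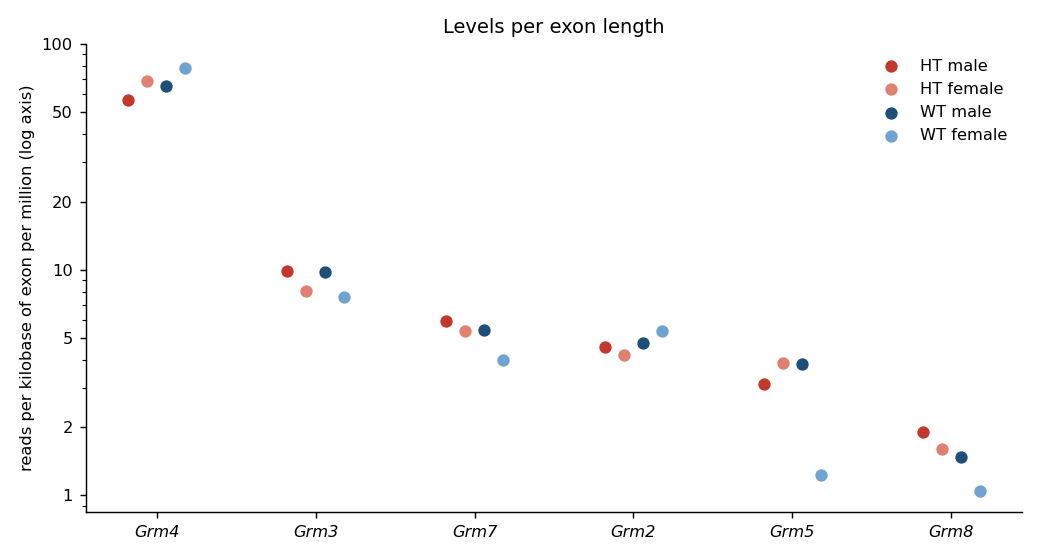
Levels of the 6 members in RPKM over the union of exons (log axis), with 1 point per library. Grm4 lies above all others in every library, and the Grm5 point of the female WT library lies at 1.24 RPKM, below the other 3 Grm5 points.

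Between the genotypes 0 of the 6 members reached an adjusted p under 0.05, where 0.0198% of all tested genes passed. The edgeR quasi-likelihood test was used, with Benjamini-Hochberg adjustment over all tested genes. At an unadjusted p under 0.05 the count was 1 member, Grm8, where 11.7% of all tested genes passed that looser line. limma-voom (0.0198% of all genes called) and edgeR's likelihood ratio test (1.1% called) also called 0 members. DESeq2 gave an adjusted p to 1 member only, Grm4, and did not call it, where it called 0.547% of the 6031 genes it gave one. By fitted fold change, 4 members were higher and 2 lower in HT, and their median was 0.17 on the log2 scale, beside a median of 0.00630 and 51.1% higher genes over all genes tested. The median of the members was -0.09 without the female WT library, 0.38 without the male WT library and 0.07 without the male HT library. Both HT libraries lay outside the range of the WT libraries for 2 members, Grm8 above and Grm2 below. Of all tested genes 22.1% had both HT libraries above, 22.6% had both below and 44.7% showed either gap. The female WT library held the lowest level of 4 members (Grm3, Grm5, Grm7 and Grm8) and the highest level of the other 2 (Grm2 and Grm4). Over all tested genes, it held the lowest or the highest level for 61.7%, against 50.3% for the HT male, 38.9% for the HT female and 49.1% for the WT male.

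**Figure D2:**
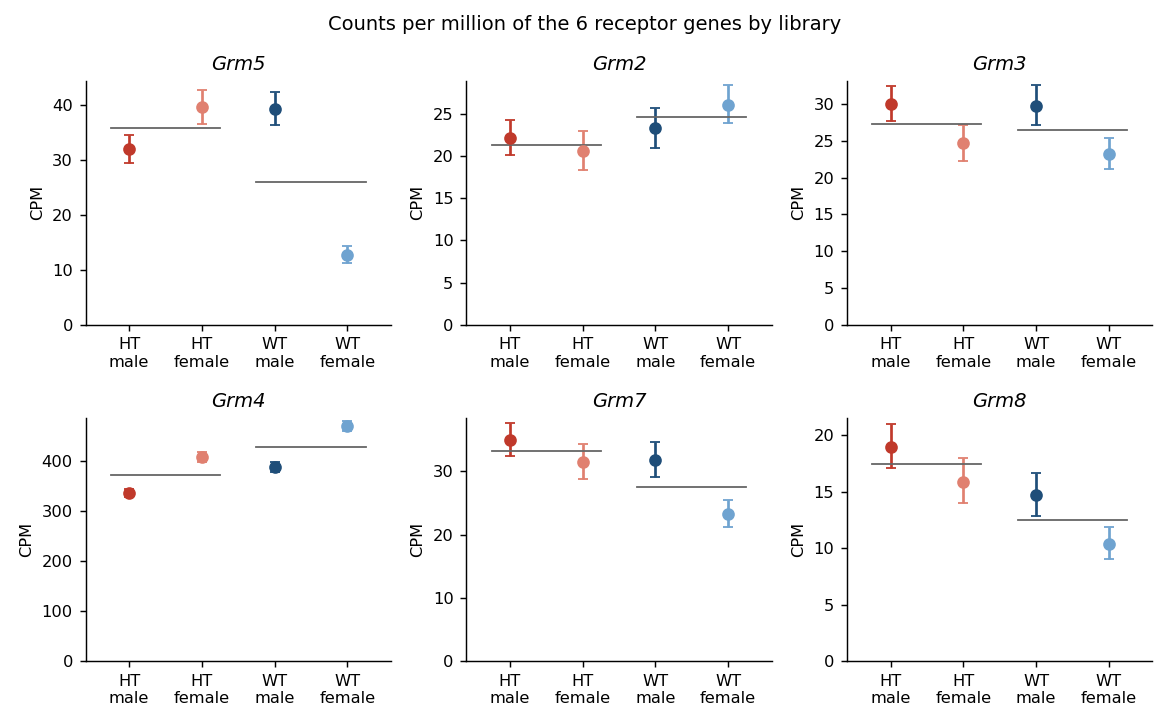
CPM of each member in the 4 libraries, with exact 95% Poisson intervals that cover counting error only and grey lines at the mean of each genotype. Grm5 in the female WT library lies at 12.7 CPM, while its other 3 values lie between 31.9 and 39.6 CPM.

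Grm5, the group I member, activates phospholipase C through Gq. It stood at 31.9 CPM in the HT male and 39.6 CPM in the HT female, against 39.3 CPM in the WT male and 12.7 CPM in the WT female, or 648 and 632 counts against 647 and 261. One library was low and the genotypes overlapped, because the WT male lay inside the range of the HT libraries. The means were 35.8 ± 5.43 CPM in HT and 26.0 ± 18.9 CPM in WT (SD, n = 2 each), and the fitted log2 fold change was 0.64 ± 0.83 (SE) with an adjusted p of 0.867. Within the sexes the log2 ratio of HT over WT was -0.30 in males and 1.64 in females. The gap between the sexes did not pass its own test (unadjusted p = 0.0786, adjusted p = 0.998). The log2 fold change of Grm5 was -0.14 without the female WT library, and without the male WT library it was 1.50. Each of these fits keeps a lone WT library, so its spread came from the HT libraries only.

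The exact 95% Poisson interval of Grm5 was 11.2 to 14.3 CPM in the female WT library and 36.4 to 42.5 CPM in the male WT library, so counting error did not span the gap. The lowest of the other 3 libraries was 2.52-fold above the female WT library. Among the 10435 tested genes with a mean of at least 10 CPM, 38 (0.364%) were lower in the female WT library by at least that factor. Grm5, whose own gap set the factor, is counted in the 38. With each other library taken as the low one, the count was 0 in the HT male, 1 in the HT female and 0 in the WT male. Of the 12 brainstem and midbrain markers, 5 showed a gap at least as wide: Dbh, Slc6a2, Slc6a3, Slc6a4 and Tph2, which serve noradrenaline, dopamine and serotonin neurons. The genes whose pattern over the 4 libraries was nearest to that of Grm5 were Scn3a, a sodium channel subunit, and Col25a1, a membrane collagen, at root mean square distances of 0.05 and 0.06 on the log2 scale, where Grm5 itself deviated by 0.67 from its own mean. Between the females, Scn3a had 15.9 CPM in HT against 5.29 CPM in WT, and Col25a1 had 25.1 CPM in HT against 7.71 CPM in WT. Summed Golgi cell markers, which include the glycine transporter Slc6a5, were also lowest in that library, with 198 and 177 CPM in the HT male and female, against 131 and 91.3 CPM in the WT male and female. The part of these cell types in the Grm5 value was not tested.

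**Figure D3:**
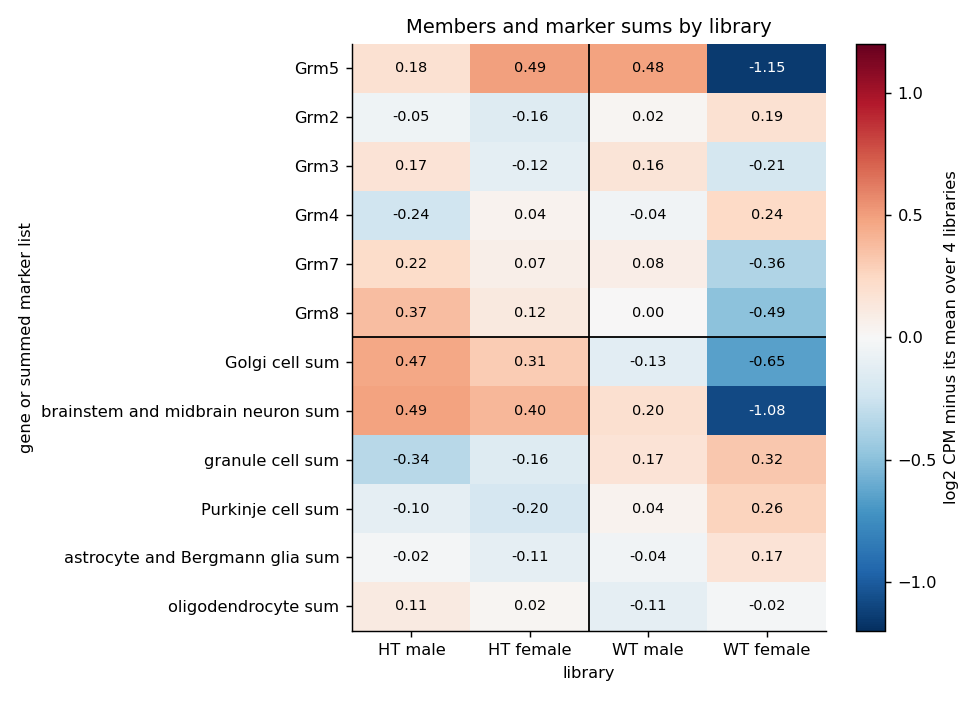
Log2 CPM of each member (with a prior count of 2) and of summed marker lists, each minus its own mean over the 4 libraries, with HT libraries left of the black line and WT libraries right of it. Grm5 and the sum of brainstem and midbrain markers are the rows with the deepest female WT value, at -1.15 and -1.08.

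Grm2 is a group II receptor that serves as an inhibitory glutamate receptor of Golgi cells. Its level was 22.1 CPM in the HT male and 20.6 CPM in the HT female, against 23.3 CPM in the WT male and 26.1 CPM in the WT female. Both HT libraries lay below both WT libraries, by a margin between the males that was smaller than the counting intervals. The means were 21.3 ± 1.11 CPM in HT and 24.7 ± 1.99 CPM in WT (SD, n = 2 each), and the fitted log2 fold change was -0.21 ± 0.15 (SE) with an adjusted p of 0.655. The summed Golgi cell markers ran the other way, all 5 being higher in HT by fitted fold change. Slc6a5 among them passed the adjusted threshold (edgeR quasi-likelihood test, log2 fold change of 1.42 ± 0.18, SE, adjusted p = 0.0473). That call was lost without the sex term and with a filter of 1 CPM in at least 2 libraries, where 0 genes passed. Gjd2 alone overlapped between the genotypes. Of all tested genes 22.1% had both HT libraries above both WT libraries. Like the brainstem and midbrain markers, the Golgi sum was lowest in the female WT library. The part of Golgi cells in the Grm2 value was not tested. Grm2 was at -0.12 on the log2 scale without the female WT library. The nearest patterns were those of Dpy19l3 and Tfcp2, both at 0.01, where Grm2 itself deviated by 0.12.

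Grm3, the other group II member, is found in glia as well as in neurons. It stood at 30.0 CPM in the HT male and 24.6 CPM in the HT female, against 29.8 CPM in the WT male and 23.1 CPM in the WT female. The males of both genotypes were the high pair and the females the low pair. The log2 fold change between genotypes was 0.05 ± 0.14 (SE; adjusted p = 0.927), and it was -0.12 without the female WT library and -0.10 without the male HT library. Between the sexes it was -0.33 ± 0.14 (SE) in females over males, with an unadjusted p of 0.0409 and an adjusted p of 0.994. Summed astrocyte and Bergmann glia markers had their low value in the HT female and their high value in the WT female, with 1827 and 1715 CPM in the HT male and female, against 1802 and 2079 CPM in the WT male and female. The nearest patterns to Grm3 were those of Eif4ebp2 and Lsm12, both at a distance of 0.03, where Grm3 itself deviated by 0.16.

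Grm4, a group III receptor and presynaptic brake on parallel fibres, made up most of the members' counts. Its share of them was 70.9% in the HT male and 75.6% in the HT female, against 73.6% in the WT male and 83.1% in the WT female. It stood at 337 and 409 CPM in the HT male and female, against 388 and 470 CPM in the WT male and female. In each sex the HT library was the lower, and the genotypes overlapped because both females exceeded the males of their own genotype. The means were 373 ± 50.7 CPM in HT and 429 ± 57.9 CPM in WT (SD, n = 2 each). The log2 fold change was -0.20 ± 0.10 (SE; adjusted p = 0.484), and the log2 ratio was -0.20 in males and -0.20 in females. In fits with 1 library left out, which carry no sex term, it was -0.06 without the female WT library, -0.07 without the male HT library and -0.36 without the female HT library. Without the male WT library it was -0.33, in a fit whose spread came from the HT libraries only.

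Granule cell markers lay on the same side as Grm4. All 10 were lower in both HT libraries than in both WT libraries, as were 22.6% of all tested genes. The median of the 10 was -0.48 on the log2 scale, beside 0.00630 over all tested genes. Of these markers 0 passed the adjusted threshold. Their summed level was 3071 and 3477 CPM in the HT male and female, against 4348 and 4853 CPM in the WT male and female. Their part in the Grm4 value was not tested. Between the sexes Grm4 had a log2 fold change of 0.28 ± 0.10 (SE) in females over males, with an unadjusted p of 0.0183 and an adjusted p of 0.994. The nearest patterns were those of Plekha5, at 0.01, and Pan2, at 0.02, where Grm4 itself deviated by 0.17.

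Grm7, a group III receptor of low glutamate affinity found in presynaptic active zones, stood at 35.0 CPM in the HT male and 31.5 CPM in the HT female, against 31.8 CPM in the WT male and 23.3 CPM in the WT female. The female WT library was low, and the other 3 libraries lay close together. The means were 33.3 ± 2.45 CPM in HT and 27.6 ± 5.98 CPM in WT (SD, n = 2 each), and the fitted log2 fold change was 0.29 ± 0.14 (SE; adjusted p = 0.482). Without the female WT library the log2 fold change was 0.07, and without the male WT library it was 0.52, each with a lone WT library in the fit.

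Grm8, a group III receptor of high glutamate affinity, stood at 19.0 CPM in the HT male and 15.9 CPM in the HT female, against 14.7 CPM in the WT male and 10.4 CPM in the WT female. Both HT libraries were above both WT libraries, and the male was the higher of each genotype. The gap between the lower HT and the higher WT value was 15.9 against 14.7 CPM, and the exact Poisson intervals of these values overlapped. The means were 17.5 ± 2.16 CPM in HT and 12.5 ± 3.06 CPM in WT (SD, n = 2 each), and the fitted log2 fold change was 0.49 ± 0.18 (SE) with an unadjusted p of 0.0172 and an adjusted p of 0.316. The log2 ratio was 0.37 in males and 0.61 in females. The fitted value was 0.25 without the female WT library and 0.75 without the male WT library, each with a lone WT library in the fit. Mir592, a microRNA gene inside Grm8 on the same strand, had 0 counts.

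**Figure D4:**
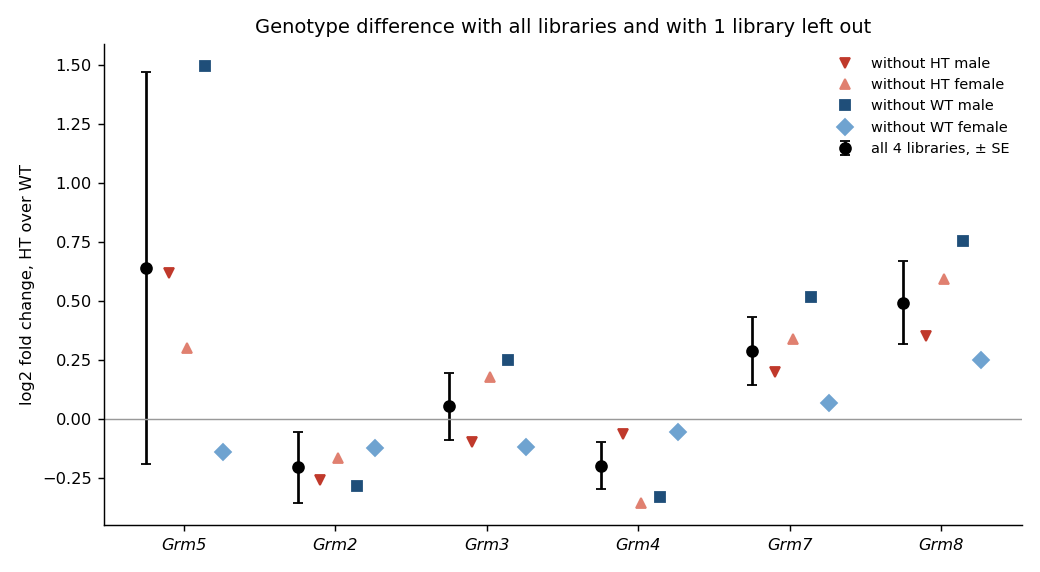
Log2 fold change of HT over WT for the 6 members, with all 4 libraries (black, ± SE) and with each library left out in turn (coloured). Without the female WT library Grm5 and Grm3 change sign, Grm7 lies at 0.07, and Grm8 stays the highest at 0.25.

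The ratio of Grm7 to Grm8 varied least among the members. Their counts stood at 1.84 and 1.98 to 1 in the HT male and female, against 2.16 and 2.25 to 1 in the WT male and female, a span of 1.22-fold that was the narrowest of the 15 pairs of members. The next narrowest spans were close to it, at 1.27-fold for Grm3 over Grm7 and 1.305-fold for Grm2 over Grm4. Grm7 and Grm8 were chosen as a pair after the values were seen, and their likeness has no test. The widest spans, 3.97-fold and 3.76-fold, were those of Grm2 and Grm4 over Grm5. Grm4 had 10.6 and 10.3 counts for each count of Grm5 in the HT male and female, against 9.86 and 37.1 in the WT male and female. The genes nearest in pattern to Grm7 were Wdr35, at a distance of 0.0114, and Fan1, at 0.0118, where Grm7 itself deviated by 0.22. Nearest to Grm8 were Nynrin and Sept9, both at 0.04, where Grm8 itself deviated by 0.31. Grm7 and Grm8 lay 0.11 apart, and of the 10434 other genes compared, 570 were nearer to Grm7 and 102 nearer to Grm8 than that.

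As the pair of members with the steadiest ratio, Grm7 and Grm8 are shown with the windows around their farthest upstream RefSeq start sites, 250 bases before to 50 after the start on GRCm38.p6, a later build than the mm9 of the counts. RefSeq windows were matched by symbol for 4 of the 6 members. Capitals mark the GC box, GGGCGG on either strand, the letters bound by Sp1-type factors. Grm7 lies on the plus strand at chr6:110645262-110645561 and Grm8 on the minus strand at chr6:28135097-28135396.
Grm7: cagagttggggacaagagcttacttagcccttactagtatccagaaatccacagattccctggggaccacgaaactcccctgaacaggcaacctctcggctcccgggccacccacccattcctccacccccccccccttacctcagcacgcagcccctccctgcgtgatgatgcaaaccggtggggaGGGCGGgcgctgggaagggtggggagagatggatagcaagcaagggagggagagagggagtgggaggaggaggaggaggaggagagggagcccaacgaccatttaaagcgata
Grm8: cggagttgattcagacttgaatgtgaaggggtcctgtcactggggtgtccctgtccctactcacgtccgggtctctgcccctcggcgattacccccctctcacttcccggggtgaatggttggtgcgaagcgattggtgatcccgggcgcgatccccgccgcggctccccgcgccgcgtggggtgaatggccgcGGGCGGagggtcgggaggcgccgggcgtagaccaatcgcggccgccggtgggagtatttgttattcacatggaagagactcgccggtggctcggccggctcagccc
Each window held 1 GC box, a motif present in 35.7% of the 32851 windows of the table. The cyclic AMP response element TGACGTCA, present in 1.79% of windows, was not among the letters of either. The share of G and C was 61.0% for Grm7 and 67.0% for Grm8, against a median of 52.7% over all windows, and the Grm8 window held 33 CpG dinucleotides to 10 in Grm7. A second window of Grm7, which overlaps the first, also held 1 GC box, while 2 further start-site windows of Grm8 held 0, with G and C shares of 54% and 43.3%. The window of Grm2 held 4 GC boxes, and that of Grm3 held 2. The part of these motifs in the levels was not tested.

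Between female and male libraries 0 of 6 members reached an adjusted p under 0.05 (edgeR quasi-likelihood test), where 0.0595% of all tested genes passed. At an unadjusted p under 0.05 the count was 2 members, Grm3 lower and Grm4 higher in females, where 3.82% of all tested genes passed. DESeq2 also called 0 members for sex. The genotype difference itself differed between the sexes for 0 members past the adjusted line and 0 at an unadjusted p under 0.05, where 0.0198% and 3.55% of all tested genes passed. Grm5 was the member whose within-sex ratios had opposite signs, a pattern of 41.7% of all tested genes.

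The signalling partners of the receptors gave 0 of 63 tested genes past the adjusted threshold by edgeR's quasi-likelihood test and by limma-voom, each of which called 0.0198% of all genes. DESeq2 called 0 of the 42 to which it gave an adjusted p, beside 0.547% of all genes it gave one. The likelihood ratio test called 2 of 63 (Adrbk2 and Rgs4), beside 1.1% of all genes. Of all tested genes 5.22% were higher and 6.46% lower in HT at an unadjusted p under 0.05, the line used for each list below. Among 13 tested Gq effectors, which carry the group I signal, 4 were higher and 9 lower in HT, and the list's median was -0.13 on the log2 scale. At an unadjusted p under 0.05 there were 4, all lower. Itpr1, the calcium release channel of Purkinje cell stores, had 1363 and 1350 CPM in the HT male and female, against 1634 and 1767 CPM in the WT male and female, a log2 fold change of -0.32 ± 0.10 (SE). Car8, a partner of Itpr1, had 913 and 816 CPM in the HT male and female, against 986 and 1218 CPM in the WT male and female, a log2 fold change of -0.34 ± 0.12 (SE). The 10 Purkinje cell markers, which share Itpr1 and Car8 with this list, were all lower by fitted fold change, with sums of 4721 and 4420 CPM in the HT male and female, against 5212 and 6091 CPM in the WT male and female. Their part in the effector values was not tested.

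Among 19 tested Gi/o effectors, which carry the group II and III signal, 11 were higher and 8 lower in HT, and the list's median was 0.03 on the log2 scale, and with 1 library left out it ran between -0.04, without the female WT library, and 0.02, without the male HT library. At an unadjusted p under 0.05 there were 5 higher and 2 lower. Gnaz, a Gi-class alpha subunit, had 36.4 and 36.5 CPM in the HT male and female, against 26.2 and 23.1 CPM in the WT male and female, a log2 fold change of 0.57 ± 0.14 (SE). Adcy1, a calcium-stimulated adenylyl cyclase of granule cells, had 884 and 1052 CPM in the HT male and female, against 1278 and 1270 CPM in the WT male and female, a log2 fold change of -0.40 ± 0.11 (SE). Kcnj5, a G protein-gated potassium channel, had 1.39 ± 0.50 (SE) at a low level, and Adcy5 had 0.30 ± 0.12 (SE). Gnaz, Kcnj5 and Adcy5 were each lowest in the female WT library, as were 32% of all tested genes, while Adcy1 was lowest in the HT male. The log2 ratio of HT over WT was 0.53 in males and 2.24 in females for Kcnj5. It was 0.13 and 0.46 for Adcy5, and 0.47 and 0.65 for Gnaz.

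Scaffolds and binding partners were mostly on the higher side, with 8 of 9 tested genes higher in HT and a list median of 0.26 on the log2 scale, which was 0.14 without the female WT library. At an unadjusted p under 0.05 there were 2, both higher. Elfn1, a postsynaptic adhesion protein that recruits Grm7 across the synapse in rodent hippocampus, had 17.3 and 18.7 CPM in the HT male and female, against 13.7 and 7.52 CPM in the WT male and female, a log2 fold change of 0.82 ± 0.24 (SE). Its paralog Elfn2 had 0.64 ± 0.28 (SE), Grip1, a PDZ scaffold, 0.44 ± 0.20 (SE), and Ncdn, which binds group I receptors, 0.26 ± 0.11 (SE). Like Grm7 and Grm8, each of these 4 was lowest in the female WT library, as were 32% of all tested genes. In the same list Homer1 and Homer2 were also lowest there, while Homer3 and Pick1 were highest there.

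Of 12 tested kinases, arrestins and RGS proteins, which end receptor signals, 5 were higher and 7 lower, and the list's median was -0.07 on the log2 scale, and with 1 library left out it ran between -0.17, without the female HT library, and 0.00567, without the male HT library. Rgs4, which speeds the turn-off of Gi and Gq, had 87.4 and 83.6 CPM in the HT male and female, against 66.2 and 56.9 CPM in the WT male and female, a log2 fold change of 0.48 ± 0.11 (SE; adjusted p = 0.156). Adrbk2, a receptor kinase, had 127 and 146 CPM in the HT male and female, against 180 and 188 CPM in the WT male and female, a log2 fold change of -0.43 ± 0.10 (SE; adjusted p = 0.171). Rgs2 had 0.49 ± 0.14 (SE) and Grk5 -0.41 ± 0.16 (SE). At an unadjusted p under 0.05 there were 2 higher and 3 lower. Of 10 genes of glutamate supply and clearance, 5 were higher and 5 lower, with 1 on each side at an unadjusted p under 0.05. Their median was 0.02, and it was -0.02 without the female HT library and 0.06 without either male library. Slc1a1, a neuronal glutamate transporter, had 0.36 ± 0.14 (SE), Slc1a6, the transporter of Purkinje cells, -0.32 ± 0.13 (SE), and the glutamine synthetase Glul 0.21 ± 0.11 (SE).

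**Figure D5:**
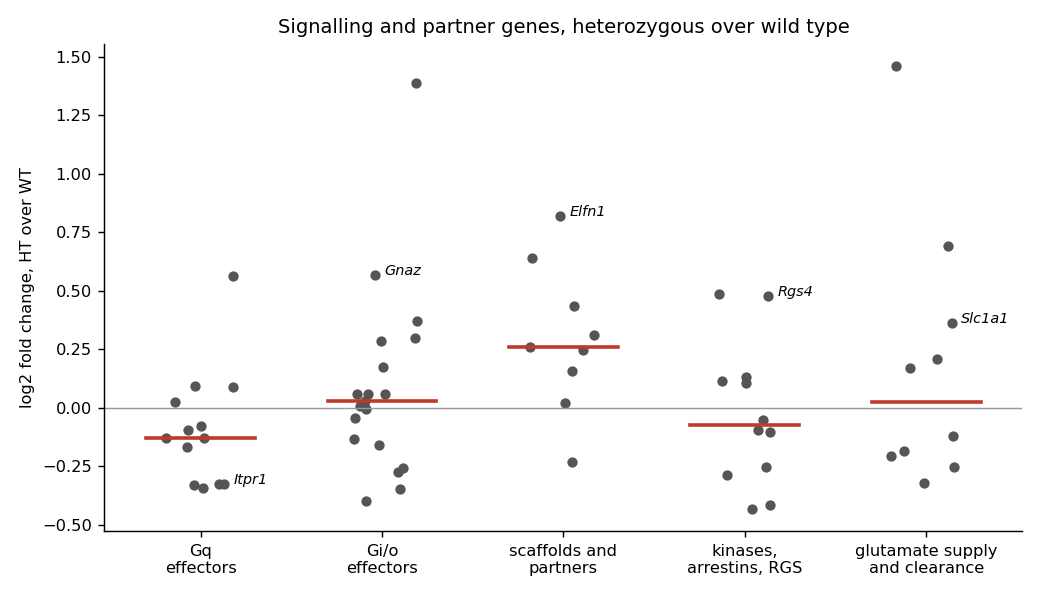
Log2 fold change of HT over WT for each tested gene of 5 lists of receptor partners, with the list median as a red bar and the gene of smallest p labelled. The medians run between -0.13 for Gq effectors and 0.26 for scaffolds and binding partners.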

How the data were processed

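The authors deposited unnormalised read counts for each gene symbol, in 1 column per library. The submitters' processing notes list mm9, STAR, featureCounts, FastQC and edgeR, with no versions, settings or order. Whether counting used strand is not stated in the sources, so reads of antisense genes could be included. Members, gene lists and tests were chosen with earlier results of these data known.

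Genes were kept with filterByExpr by genotype (15117 of 24015) and scaled by TMM. A robust quasi-likelihood fit (edgeR 4.0.16, R 4.3.3) with sex and genotype as terms had 1 residual degree of freedom, moderated across genes, with a common biological coefficient of variation of 11.5%. Two-sided p-values were adjusted (Benjamini-Hochberg, threshold 0.05) across the 15117 genes. The standard error is the size of the log2 fold change over the square root of F. The difference between the sexes was tested as the product of both codes beside genotype. Within-sex ratios, with a prior count of 2, are untested. CPM and RPKM were computed here from the counts, with exon lengths of GENCODE M21. With 3 counts as the floor, a gene with no count may reach 0.146 to 0.188 CPM, which covers counting error only.

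The results were recomputed with limma-voom (limma 3.58.1), the likelihood ratio test of edgeR, DESeq2 1.42.0, DESeq2's size factors, library totals, other filters, no sex term, an adjusted p of 0.1, prior counts of 0.5 and 5, other lengths, and leaving out each library. Scripts were tested on simulated data.

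Named genes were the members, Arid1b, up to 4 genes of smallest p per partner list with a mean of at least 1 CPM, up to 2 markers by smallest p, and for each member the 2 genes of at least 10 CPM whose centred log2 CPM lay nearest in root mean square distance. Some genes this rule picks are not reported here. Other genes (Tph2, Slc6a3, Dbh, Slc6a2, Slc6a4, Gjd2, Pomc, Homer1, Homer2, Homer3, Pick1) were named after their values were seen.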

Additional observations from a re-analysis of the deposited data

Results flagged for a closer look

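The log2 ratio of HT over WT for Grm5 pointed in opposite directions in the sexes, at -0.30 between the males and 1.64 between the females. The female ratio minus the male ratio was 1.94. The test of this difference gave an adjusted p of 0.998 over all tested genes in edgeR's quasi-likelihood test. Of the 4 libraries, the female WT held the lowest Grm5 level, at 12.7 CPM.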

How the results depend on the processing

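The count of 0 members past the threshold between genotypes held in every alternative except the leave-one-out fits, where it ran from 0 to 4. It was 4 (Grm4, Grm5, Grm7 and Grm8) without the male WT library, where 17.5% of all tested genes were called. In such fits the genotype that keeps both libraries sets the spread, and the lone library is assumed to vary like it. DESeq2 gave an adjusted p to 1 of the 6 members. The count of 0 partner genes was 2 with the likelihood ratio test (Adrbk2 and Rgs4), 7 with no low-count filter, and 0 to 30 with a library left out. Of all genes, these fits called 1.1% with the likelihood ratio test, 2.92% with no filter, and 17.5% without the male WT library, which gave the 30. With a library left out, the log2 fold change of Grm3 ran from -0.12 to 0.25 and that of Grm5 from -0.14 to 1.50. Grm3 turned to -0.10 without the male HT library and -0.12 without the female WT library, and Grm5 to -0.14 without the female WT library. The cause of these changes was not tested. The member counts for sex did not change with DESeq2, and other prior counts turned no within-sex ratio. The labels carry no replicate numbers, and sex was the term that paired libraries of the genotypes. Without the sex term the counts of members and of partner genes called were both 0.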
